A study of Homo sapiens with 16 samples.

Results

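The genes described here are 10 genes of the voltage-gated calcium entry of the heart cell and its brakes, taken by name from the deposited expression table, which lists 43388 genes: the RGK GTPases RRAD, GEM, REM1 and REM2, the pore subunits CACNA1C, CACNA1D and CACNA1G, the beta subunit CACNB2, and the alpha2delta subunits CACNA2D1 and CACNA2D2. Of the 10 genes, 8 passed the filter of a mean of at least 1 TPM (a level per gene length, scaled to the same total in every library) over all libraries, which 16122 genes passed. REM1 was listed at 0 in all 16 libraries and REM2 stayed below the filter. RNA was sequenced from WT WTC11 hPSC-CMs, cardiomyocytes made from a human induced pluripotent stem cell line by the GiWi protocol, in 4 groups of 4 libraries. Cells were harvested at Day 16 in RPMI/B27, or moved at Day 16 for a further culture until Day 30 in standard RPMI/B27, in RPMI_glcM/B27, an RPMI whose glucose was set to 5 mM, or in HPLM/B27, the human plasma-like medium. All groups carried the B27 supplement, and the Day 30 groups share their first 16 days in RPMI/B27. The wells came from a single differentiation of a single line, so each SD and p-value describes the spread between wells and not between differentiations or donors.

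The L-type channel opens on depolarization and lets in the calcium that triggers release from the sarcoplasmic reticulum. It is built from a pore-forming alpha1 subunit (CACNA1C, or Cav1.2, in working myocardium; CACNA1D, or Cav1.3, in pacemaker and atrial cells), a cytosolic beta subunit that brings the pore to the membrane and sets its gating, and an extracellular alpha2delta subunit that raises its surface density. CACNA1G encodes Cav3.1, a T-type pore that opens at more negative voltages and does not need these partners. RGK proteins are small GTPases that bind beta subunits and hold down the current, and RRAD, also called Rad, is the member that beta-adrenergic signalling releases from the channel in heart muscle.

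RRAD was also assayed by qPCR in the study, and its primer pair is shown because it marks the stretch of the RRAD mRNA that was read there, whereas the RNA-seq level covers the whole gene. The study reported RRAD as higher in HPLM/B27 than in RPMI_glcM/B27, citing heatmaps of its RNA-seq of these cells and of that qPCR. The qPCR covered several cell lines and independent differentiations and is not analysed here. The forward primer matched chr16:66924906-66924925 (hg38, gene on the minus strand), inside coding exon 2 of the 5 exons of the principal RRAD transcript in GENCODE. The reverse primer crossed the junction of exons 2 and 3, and the capitals mark its 15 bases in exon 3. The product is 131 bases long on that transcript, and both primers matched 3 of the 4 RRAD transcripts annotated.
RRAD forward: cgactcagacgagagcgttt
RRAD reverse: GATCATAGGTGTGCCctgct

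Promoters from RefSeq (GRCh38.p14, 250 bases before to 50 after an annotated start) were found for 6 of the 10 genes, as 10 sequences. Those of CACNA1C, CACNA1D and CACNA2D1 are shown because the pore gene CACNA1C passed no test on the deposited scale, while CACNA1D fell and CACNA2D1 rose between Day 16 and Day 30 in RPMI_glcM/B27 and HPLM/B27. Both strands were searched for the E-box CACGTG, the CRE motif TGACGTCA, the AP-1 motif TGANTCA, in which N is any base, the TATA motif TATAAA, the motif CCAAT and the GC box GGGCGG, and capitals mark every match (CCGCCC is the GC box on the other strand). The CACNA1C promoter lies at chr12:2052737-2053036 on the plus strand, that of CACNA1D at chr3:53494361-53494660 on the plus strand, and that of CACNA2D1 at chr7:82443907-82444206 on the minus strand.
CACNA1C promoter: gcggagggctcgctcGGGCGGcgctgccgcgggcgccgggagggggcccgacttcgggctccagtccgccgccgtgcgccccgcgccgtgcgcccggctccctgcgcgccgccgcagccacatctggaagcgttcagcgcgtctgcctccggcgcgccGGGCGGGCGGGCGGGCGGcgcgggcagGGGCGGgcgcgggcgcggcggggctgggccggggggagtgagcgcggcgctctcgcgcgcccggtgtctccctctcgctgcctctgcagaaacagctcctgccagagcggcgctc
CACNA1D promoter: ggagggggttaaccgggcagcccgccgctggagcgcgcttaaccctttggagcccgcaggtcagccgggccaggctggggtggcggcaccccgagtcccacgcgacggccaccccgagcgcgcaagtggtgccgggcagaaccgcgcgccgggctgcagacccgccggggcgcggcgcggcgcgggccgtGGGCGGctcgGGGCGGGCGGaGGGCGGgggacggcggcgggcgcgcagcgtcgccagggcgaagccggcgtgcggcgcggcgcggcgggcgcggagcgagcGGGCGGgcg
CACNA2D1 promoter: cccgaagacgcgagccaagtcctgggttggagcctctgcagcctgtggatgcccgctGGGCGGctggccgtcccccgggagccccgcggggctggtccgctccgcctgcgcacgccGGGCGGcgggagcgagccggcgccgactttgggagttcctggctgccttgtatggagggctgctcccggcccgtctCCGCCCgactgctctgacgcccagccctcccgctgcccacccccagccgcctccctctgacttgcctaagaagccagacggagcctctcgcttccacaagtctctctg

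The only motif found in these 3 promoters was the GC box, which 44.9% of 34796 distinct promoters of the same length hold. It was present 6 times in the CACNA1C promoter, counting matches that overlap, 5 times in that of CACNA1D and 3 times in that of CACNA2D1. The 3 windows were 82.3%, 83.0% and 72.3% G and C, against a median of 58.7% over all promoters. They held 54, 56 and 29 CpG dinucleotides, against a median of 14. The REM2 promoter, 57.3% G and C with 6 CpG dinucleotides, held none of the motifs. The shares of promoters with the other motifs were 7.21% for the E-box, 1.84% for the CRE, 7.73% for AP-1, 11.6% for TATAAA and 34.6% for CCAAT.

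The libraries held between 7744768 and 16183655 reads on genes, recovered as whole numbers from the deposited TPM. Replicates of a group differed by more than sampling noise (chi-square per degree of freedom between 2.13 and 57.1), and no pair of libraries was identical. RNR1, a mitochondrial ribosomal RNA, ranged from 49.5 to 29276 TPM. RNR2, another mitochondrial ribosomal RNA, held between 41.0% and 48.3% of the total TPM of a library. The median of all genes tested was lower at Day 30 than at Day 16 by 0.28, 0.22 and 0.29 on the log2 scale (standard RPMI/B27 first, then RPMI_glcM/B27, then HPLM/B27), a shift that median-of-ratios scaling of the libraries removes. Against Day 16, values of the 10 genes on both scales are therefore given where they differ in direction or call. Cardiomyocyte-like markers were high throughout, with a summed level of 9177 to 13799 TPM over 8 genes. Some markers of other cells were at or near 0 (MYH11 of smooth muscle at 0 in all libraries, VWF of endothelium at most 0.154 TPM, ELAVL4 of neurons at most 0.0671 TPM). Others were well above it, such as AFP (hepatic endoderm), ACTA2 and CNN1 (smooth muscle), COL1A1 (fibroblasts) and KDR (endothelium), with means of 441, 364, 165, 66.6 and 47.0 TPM at Day 16. The 6 hepatic endoderm-like markers summed to between 415 and 732 TPM at Day 16, against 48.2 to 127 TPM in HPLM/B27, 49.3 to 110 TPM in RPMI_glcM/B27 and 156 to 249 TPM with standard RPMI/B27 at Day 30. The 8 fibroblast-like markers summed to between 240 and 436 TPM at Day 16, against 122 to 186 TPM in HPLM/B27, 118 to 163 TPM in RPMI_glcM/B27 and 151 to 299 TPM with standard RPMI/B27 at Day 30. The endothelial-like sum, nearly all of it KDR, was 42.3 to 54.5 TPM at Day 16 and 13.2 to 31.1 TPM over the Day 30 libraries, and the smooth muscle-like sum 395 to 855 and 244 to 950 TPM. The neuron-like sum was 18.5 to 34.1 TPM over all libraries. The part of these marker lists in the Day 30 against Day 16 results was not tested. In such bulk RNA, fewer cells of a type and less RNA per cell cannot be told apart.

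RRAD (chr16:66921685-66925535) was the most abundant RGK gene and its level was highest in HPLM/B27. Its TPM in HPLM/B27 was 126, 144, 130 and 127, against 77.0, 80.0, 63.9 and 60.7 in RPMI_glcM/B27, 85.8, 62.9, 49.8 and 68.3 in Day 30 RPMI/B27, and 20.7, 92.5, 26.6 and 19.8 at Day 16. All 4 HPLM/B27 libraries lay above all 12 others. The Day 30 groups with RPMI overlapped each other almost fully. At Day 16, replicate 2 stood above every Day 30 RPMI library while the other 3 were far lower. The group means were 132 ± 8.62, 70.4 ± 9.50, 66.7 ± 14.9 and 39.9 ± 35.2 TPM (SD, n = 4) in the same order, from 115 to 988 reads per library.

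Between HPLM/B27 and Day 16, RRAD rose by 2.01 ± 0.34 on the log2(TPM + 1) scale (SE, limma, adjusted p = 0.000596). Against RPMI_glcM/B27 at the same day, RRAD was 1.87-fold as high in the means, with a log2 fold change of 0.90 ± 0.34 that did not pass (SE, limma, adjusted p = 0.578). Against Day 30 RPMI/B27 the means differed 1.97-fold, with a log2 fold change of 0.99 ± 0.34 that also did not pass (SE, limma, adjusted p = 0.151). The spread in these fits is shared by all 4 groups and so includes Day 16 replicate 2. Without that library, left out after RRAD was seen to be high in it, the adjusted p (limma) was 0.0315 against RPMI_glcM/B27 and 0.00266 against Day 30 RPMI/B27. With only the 2 groups compared in the fit, the adjusted p (limma) was 0.0162 and 0.0300, and limma-voom on recovered reads gave an adjusted p of 0.0705 and 0.00614. Neither comparison passed after median-of-ratios scaling (limma, adjusted p = 0.159 and 0.0508) or with all genes above 0 in the fit (limma, adjusted p = 0.759 and 0.275). Of the 7 alternatives that kept all libraries, 1 passed against RPMI_glcM/B27 and 2 against Day 30 RPMI/B27.

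From Day 16 to Day 30 within RPMI, RRAD rose by 1.02 ± 0.34 in RPMI/B27 (SE, log2 scale, limma, adjusted p = 0.0453) and by 1.11 ± 0.34 in RPMI_glcM/B27 (SE, log2 scale, limma, adjusted p = 0.0285), although the groups overlapped through Day 16 replicate 2. Without it the changes were 1.52 and 1.61 (log2 scale, limma, adjusted p = 5.51e-05 and 1.71e-05). Neither passed with only the groups compared in the fit (limma, adjusted p = 0.159 and 0.0798) or with all genes above 0 in it (limma, adjusted p = 0.0872 and 0.0559). Among the 8 fits that left out 1 library, the call held in RPMI/B27 only without Day 16 replicate 2 or Day 30 RPMI/B27 replicate 2, and in RPMI_glcM/B27 only without Day 16 replicate 2 or RPMI_glcM/B27 replicate 3 or 4. The rise to HPLM/B27 held in all 8. The RRAD difference from Day 30 RPMI/B27 to RPMI_glcM/B27 was 0.09 ± 0.34 (SE, log2 scale, limma, adjusted p = 0.935). Day 16 replicate 2 also held the lowest RNR1 of all libraries (49.5 TPM) and, among Day 16 libraries, the lowest summed smooth muscle-like level (395 TPM against 721 to 855 TPM), the lowest cardiomyocyte-like level (9327 TPM against 11370 to 11632 TPM) and the highest fibroblast-like level (436 TPM against 240 to 285 TPM). The part of these differences in its RRAD level was not tested.

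GEM, the RGK gene that is induced by growth and depolarizing stimuli in many cells, was highest in HPLM/B27 and lowest in Day 30 RPMI/B27. Its TPM in HPLM/B27 was 31.1, 28.7, 39.6 and 39.0, in RPMI_glcM/B27 22.2, 20.2, 17.6 and 18.4, in Day 30 RPMI/B27 12.6, 10.5, 10.6 and 8.49, and at Day 16 14.7, 16.7, 16.7 and 10.4. The 3 Day 30 groups did not overlap, with HPLM/B27 highest and RPMI/B27 lowest, and Day 16 lay between the RPMI groups and overlapped the lower one. The means were 34.6 ± 5.54, 19.6 ± 2.06, 10.6 ± 1.69 and 14.6 ± 2.97 TPM (SD, n = 4), from 110 to 489 reads per library. GEM rose by 1.62 ± 0.16 in HPLM/B27 against Day 30 RPMI/B27 (SE, log2 scale, limma, adjusted p = 3.98e-05) and by 1.19 ± 0.16 against Day 16 (SE, log2 scale, limma, adjusted p = 9.57e-05). Both calls held in every alternative and with each library left out. In RPMI_glcM/B27 it rose by 0.84 ± 0.16 against Day 30 RPMI/B27 (SE, log2 scale, limma, adjusted p = 0.0117), a call lost only with the 2 groups alone in the fit (limma, adjusted p = 0.0728). The GEM difference of 0.78 ± 0.16 from RPMI_glcM/B27 to HPLM/B27 missed the threshold (SE, log2 scale, limma, adjusted p = 0.0725). The latter passed after median-of-ratios scaling (limma, adjusted p = 0.00617), with RNR1 as a covariate (limma, adjusted p = 0.0214) and in limma-voom on recovered reads (adjusted p = 0.00282). Against Day 16, GEM differed by -0.43 ± 0.16 in Day 30 RPMI/B27 (SE, log2 scale, limma, adjusted p = 0.0711) and by 0.41 ± 0.16 in RPMI_glcM/B27 (SE, log2 scale, limma, adjusted p = 0.0801), of which the latter was 0.66 and passed after median-of-ratios scaling (limma, adjusted p = 0.00263). GEM lies on chromosome 8 from 94249253 to 94262319 (GRCh38.p14).

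REM2 (chr14:22883222-22887678), an RGK gene best known from neurons and endocrine cells, was near the limit of detection. Its highest library held 1.38 TPM from 24 reads, in Day 30 RPMI/B27, and its lowest 0.212 TPM from 3 reads, at Day 16. The group means were 0.622 ± 0.470 at Day 16, 0.900 ± 0.381 for Day 30 RPMI/B27, 0.434 ± 0.102 for RPMI_glcM/B27 and 0.753 ± 0.241 TPM for HPLM/B27 (SD, n = 4). All 4 libraries of RPMI_glcM/B27, with 4 to 7 reads each, lay below those of the other Day 30 groups. With all genes above 0 in the fit, its differences between groups did not pass (limma, adjusted p from 0.447 to 0.940). REM1 (chr20:31475288-31484895), the RGK gene found in skeletal and heart muscle, was listed at 0 reads in every library, so no level or fold is given.

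**Figure D1:**
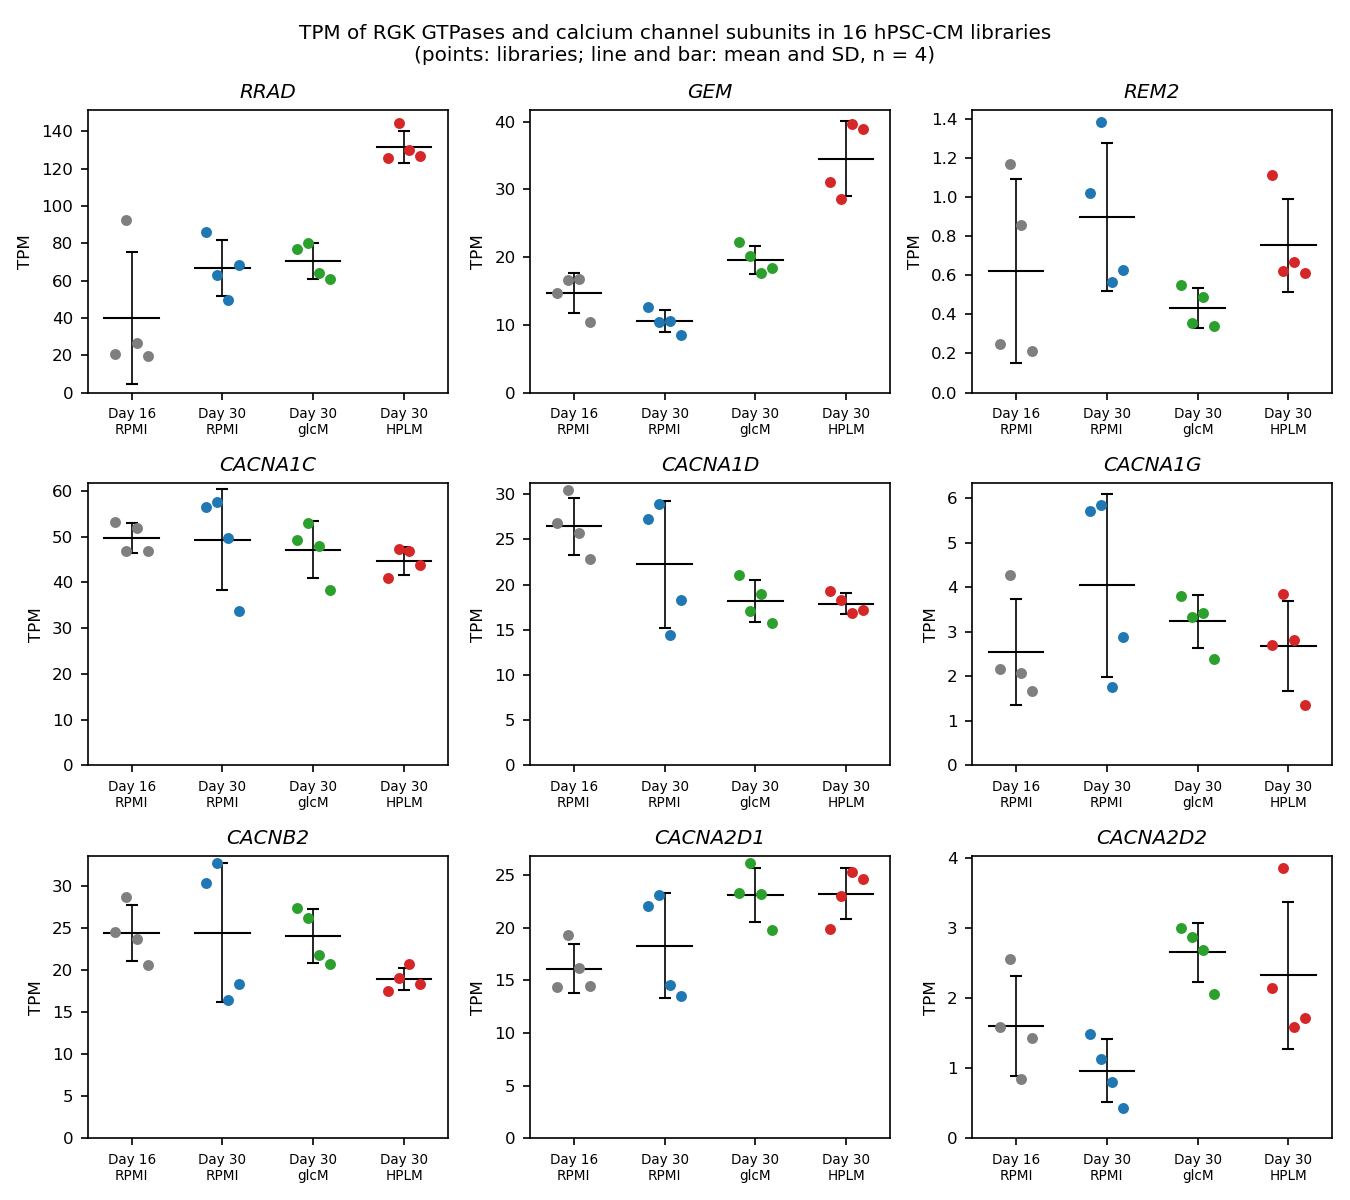
Level in TPM (vertical axes, each from 0) of the 9 genes above 0 in any library, by group (horizontal axis). Points are libraries, and the line and bar are the mean and SD of 4 libraries. RRAD and GEM are highest in HPLM/B27, where RRAD lies between 126 and 144 TPM and GEM between 28.7 and 39.6 TPM, while CACNA1C overlaps between all groups.

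RRAD made up most of the RGK transcripts in each group, at 66.8% ± 11.8, 85.1% ± 2.83, 77.8% ± 1.32 and 78.8% ± 3.28 of their summed TPM (SD, n = 4) at Day 16 and then, at Day 30, with standard RPMI/B27, with RPMI_glcM/B27 and with HPLM/B27. GEM held nearly all of the rest, and its share was lowest in Day 30 RPMI/B27 at 13.8% ± 2.74 (SD, n = 4). The summed RGK level was 167 ± 6.79 TPM in HPLM/B27, 90.4 ± 11.3 in RPMI_glcM/B27, 78.1 ± 15.9 in Day 30 RPMI/B27 and 55.2 ± 37.2 at Day 16 (SD, n = 4). The summed level of the L-type pores CACNA1C and CACNA1D was 62.6 ± 2.47, 65.3 ± 7.62, 71.6 ± 16.4 and 76.1 ± 4.46 TPM (SD, n = 4) in the same order. Within a library, RGK transcripts per L-type pore transcript were 2.67 ± 0.0462 in HPLM/B27, 1.39 ± 0.109 in RPMI_glcM/B27, 1.12 ± 0.280 in Day 30 RPMI/B27 and 0.721 ± 0.477 at Day 16 (SD, n = 4). The lowest HPLM/B27 library stood at 2.62 and the highest of all others at 1.49. A ratio within a library does not depend on how libraries are scaled to each other.

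The ratio of RRAD to CACNA1C was tested as such. The HPLM/B27 libraries held 3.07, 3.06, 2.77 and 2.90, a mean of 2.95 ± 0.143, and those of RPMI_glcM/B27 1.56, 1.51, 1.33 and 1.58, a mean of 1.50 ± 0.113 (SD, n = 4 each). Those of Day 30 RPMI/B27 held 1.52, 1.09, 1.00 and 2.03, and those of Day 16 0.389, 1.98, 0.514 and 0.423, with means of 1.41 ± 0.469 and 0.826 ± 0.771 (SD, n = 4 each). All HPLM/B27 libraries lay above all others, the highest of which was 2.03. In mean log2 ratio HPLM/B27 was higher 1.97-fold than RPMI_glcM/B27, 2.17-fold than Day 30 RPMI/B27 and 4.61-fold than Day 16. Each gave p = 0.0286 in a two-sided exact permutation test, the smallest that 4 libraries against 4 allow, and 0.114 after adjustment over the 12 ratio tests. The ratio was 2.12-fold as high in Day 30 RPMI/B27 as at Day 16 (exact permutation test, p = 0.114) and 2.34-fold in RPMI_glcM/B27 (exact permutation test, p = 0.143), with overlap through Day 16 replicate 2. RPMI_glcM/B27 and Day 30 RPMI/B27 differed 1.10-fold (exact permutation test, p = 0.571).

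The ratio of the T-type pore CACNA1G to CACNA1C stayed low, with group means between 0.0520 and 0.0809. It was 0.0597 ± 0.0210 in HPLM/B27, 0.0684 ± 0.00705 in RPMI_glcM/B27, 0.0809 ± 0.0313 in Day 30 RPMI/B27 and 0.0520 ± 0.0266 at Day 16 (SD, n = 4). In all 6 comparisons the groups overlapped, with p from 0.143 to 0.771 in exact permutation tests (0.286 to 0.771 after adjustment over the 12 tests).

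**Figure D2:**
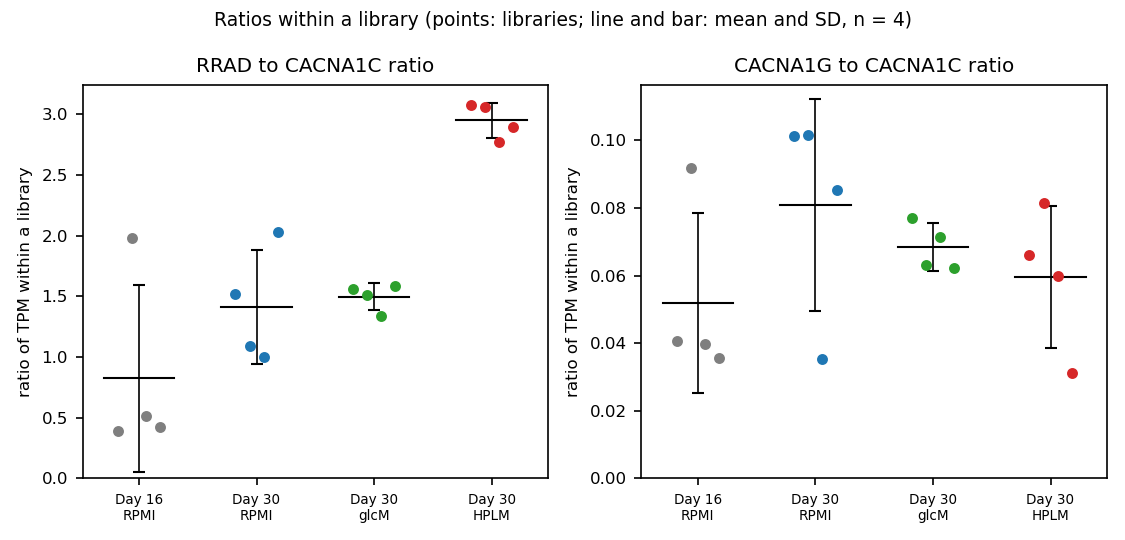
Ratio of RRAD to CACNA1C (left) and of CACNA1G to CACNA1C (right), each the TPM of one gene divided by that of the other in the same library, by group. Points are libraries, and the line and bar are the mean and SD of 4. On the left the HPLM/B27 libraries lie between 2.77 and 3.07 and all others at or below 2.03. On the right the groups overlap.

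CACNA1C (chr12:1970780-2697950), the pore of the main cardiac L-type channel, was the most abundant of the channel genes and passed the test in no comparison on the deposited scale. Its TPM was 53.2, 46.7, 51.8 and 46.9 at Day 16, 56.4, 57.5, 49.7 and 33.7 for Day 30 RPMI/B27, 49.3, 52.9, 47.9 and 38.3 for RPMI_glcM/B27 and 40.9, 47.2, 46.9 and 43.8 for HPLM/B27, each from 2258 reads or more. The groups overlapped throughout. Its log2 fold change was -0.07 ± 0.15 between HPLM/B27 and RPMI_glcM/B27 (SE, limma, adjusted p = 0.981), -0.11 ± 0.15 between HPLM/B27 and Day 30 RPMI/B27 (SE, limma, adjusted p = 0.801) and -0.04 ± 0.15 between Day 30 RPMI/B27 and Day 16 (SE, limma, adjusted p = 0.874). After median-of-ratios scaling that last difference was 0.29 and passed (log2 scale, limma, adjusted p = 0.0433). Against Day 16 the log2 fold change was -0.08 ± 0.15 in RPMI_glcM/B27 and -0.15 ± 0.15 in HPLM/B27 (SE, limma, adjusted p = 0.735 and 0.476), which turned to 0.17 and 0.18 on the median-of-ratios scale and did not pass on it either (limma, adjusted p = 0.190 and 0.180). Genes listed inside or overlapping CACNA1C also carried reads, such as the antisense gene CACNA1C-AS4 (83.5 to 95.7 TPM in the group means, 182 to 541 reads), the intronic transcripts CACNA1C-IT1 to CACNA1C-IT3, and DCP1B at its end. How their reads were divided from those of CACNA1C is not given in the sources used here.

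CACNA1D (chr3:53494611-53813733), the pore that opens at lower voltages and supports pacemaking, was lower in the 5 mM glucose RPMI and HPLM/B27 groups than at Day 16. Its TPM was 26.8, 30.4, 25.7 and 22.8 at Day 16, 27.3, 28.9, 14.5 and 18.3 for Day 30 RPMI/B27, 21.0, 17.0, 18.9 and 15.8 for RPMI_glcM/B27 and 19.3, 18.3, 16.9 and 17.2 for HPLM/B27. The libraries of Day 30 RPMI/B27 were spread over most of the range. On the deposited scale all Day 16 libraries lay above those of RPMI_glcM/B27 and HPLM/B27 (the share of all genes so separated was not counted). CACNA1D fell in both, with a log2 fold change of -0.52 ± 0.18 in RPMI_glcM/B27 (SE, limma, adjusted p = 0.0498), and -0.53 ± 0.18 in HPLM/B27 (SE, limma, adjusted p = 0.0384). After median-of-ratios scaling these were -0.26 and -0.21 and did not pass (log2 scale, limma, adjusted p = 0.0516 and 0.129), nor without Day 16 replicate 2 (limma, adjusted p = 0.133 and 0.106) or with all genes above 0 in the fit (limma, adjusted p = 0.0747 and 0.0604). Among the 8 fits that left out 1 library, the call held in RPMI_glcM/B27 only without Day 16 replicate 4 or RPMI_glcM/B27 replicate 1, and in HPLM/B27 only without Day 16 replicate 4. After median-of-ratios scaling RPMI_glcM/B27 still lay below Day 16. HPLM/B27 overlapped it, with 21.65 TPM in HPLM/B27 replicate 1 and 21.55 TPM in Day 16 replicate 3. In Day 30 RPMI/B27 the log2 fold change against Day 16 was -0.29 ± 0.18 (SE, limma, adjusted p = 0.257), and 0.04 after median-of-ratios scaling (limma, adjusted p = 0.839). The pacemaker-like list, led by HCN4, summed to 154 to 198 TPM at Day 16, 127 to 179 TPM in RPMI_glcM/B27, 113 to 123 TPM in HPLM/B27 and 105 to 182 TPM in Day 30 RPMI/B27, and its part in the CACNA1D difference was not tested.

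CACNA1G (chr17:50560715-50627474) was scarce and scattered. Its TPM was 2.17, 4.29, 2.06 and 1.66 at Day 16, 5.71, 5.84, 1.76 and 2.87 for Day 30 RPMI/B27, 3.79, 3.33, 3.41 and 2.38 for RPMI_glcM/B27 and 2.70, 3.84, 2.81 and 1.36 for HPLM/B27, from 60 to 341 reads. Day 30 RPMI/B27 replicates 1 and 2 held the highest levels of all libraries, and the groups overlapped. None of its comparisons passed, the nearest being Day 30 RPMI/B27 against Day 16 at 0.46 ± 0.30 (SE, log2 scale, limma, adjusted p = 0.273). That comparison passed after median-of-ratios scaling at 0.69 (log2 scale, limma, adjusted p = 0.0498).

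CACNB2 (chr10:18140424-18543557), the main cardiac beta subunit and the partner that RGK proteins bind, differed little between groups. Its TPM was 24.5, 28.7, 23.7 and 20.6 at Day 16, 30.3, 32.7, 16.4 and 18.3 for Day 30 RPMI/B27, 27.4, 26.2, 21.8 and 20.8 for RPMI_glcM/B27 and 17.5, 19.1, 20.7 and 18.4 for HPLM/B27. All HPLM/B27 libraries lay just below those of RPMI_glcM/B27, at a log2 fold change of -0.32 ± 0.19 that did not pass (SE, limma, adjusted p = 0.861). Against Day 30 RPMI/B27 the log2 fold change was -0.30 ± 0.19 (SE, limma, adjusted p = 0.507), which passed after median-of-ratios scaling at -0.29 (limma, adjusted p = 0.0286). Against Day 16 the log2 fold change was -0.34 ± 0.19 with HPLM/B27, -0.02 ± 0.19 with RPMI_glcM/B27 and -0.04 ± 0.19 with RPMI/B27 (SE, limma, adjusted p = 0.188, 0.957 and 0.877). On the median-of-ratios scale the values for RPMI/B27 and RPMI_glcM/B27 turned to 0.28 and 0.23 and passed (log2 scale, limma, adjusted p = 0.0304 and 0.0475), while they did not pass in limma-voom (adjusted p = 0.607 and 0.589).

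In Day 30 RPMI/B27, replicates 1 and 2 lay above replicates 3 and 4 in the deposited TPM of most of the genes. These were CACNA1C, CACNA1D, CACNA1G, CACNB2, CACNA2D1, CACNA2D2 and REM2, but not RRAD or GEM. After median-of-ratios scaling, in replicate order, CACNA2D1 was nearly level at 19.1, 19.7, 18.5 and 18.7 TPM and CACNA1D was low in replicate 3 alone, at 23.6, 24.6, 18.3 and 25.3 TPM. CACNB2 stood at 26.3, 27.9, 20.9 and 25.4 TPM and CACNA1G at 4.95, 4.98, 2.23 and 3.98 TPM on that scale, still higher in replicates 1 and 2 but by less. REM2 kept the order too, at 0.885, 1.18, 0.717 and 0.871 TPM. CACNA1C, at 48.9, 49.0, 63.1 and 46.6 TPM, and CACNA2D2, at 1.29, 0.966, 1.02 and 0.605 TPM, did not. RNR1 was 1545 and 619 TPM in replicates 1 and 2, and 14387 and 29276 TPM in replicates 3 and 4. With RNR1 as a covariate, CACNA1G was higher by 0.98 in Day 30 RPMI/B27 than at Day 16 (log2 scale, limma, adjusted p = 0.0296). Within groups, the deposited levels of all 8 genes tested correlated negatively with RNR1 (Pearson's r of deviations from group means, -0.46 for RRAD to -0.78 for CACNB2). The part of RNR1 in the split between replicates was not tested.

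CACNA2D1 (chr7:81946444-82443956), the main cardiac alpha2delta subunit, was higher in RPMI_glcM/B27 and HPLM/B27 than at Day 16, and after median-of-ratios scaling in all 3 Day 30 groups. Its TPM was 14.4, 19.3, 16.2 and 14.5 at Day 16, 22.1, 23.1, 14.6 and 13.5 for Day 30 RPMI/B27, 23.3, 26.2, 23.2 and 19.8 for RPMI_glcM/B27 and 19.9, 23.1, 25.3 and 24.7 for HPLM/B27. All libraries of the last 2 groups lay above all of Day 16 (the share of all genes so separated was not counted). Those of Day 30 RPMI/B27 split into 2 high and 2 low on the deposited scale. After median-of-ratios scaling all 4 of the latter (18.5 to 19.7 TPM) lay above all of Day 16 (12.1 to 14.7 TPM). CACNA2D1 rose by 0.50 ± 0.17 in RPMI_glcM/B27 (SE, log2 scale, limma, adjusted p = 0.0426) and by 0.51 ± 0.17 in HPLM/B27 (SE, log2 scale, limma, adjusted p = 0.0352). After median-of-ratios scaling the changes were 0.75 and 0.83 (log2 scale, limma, adjusted p = 5.66e-06 and 2.04e-06). In Day 30 RPMI/B27 the log2 fold change against Day 16 was 0.15 ± 0.17 and did not pass (SE, limma, adjusted p = 0.539), whereas after median-of-ratios scaling it was 0.46 and passed (limma, adjusted p = 0.000659). With all genes above 0 in the fit the rises in RPMI_glcM/B27 and HPLM/B27 just missed the threshold (limma, adjusted p = 0.0614 and 0.0533). Among the 8 fits that left out 1 library, the call held in RPMI_glcM/B27 only without Day 16 replicate 2 or RPMI_glcM/B27 replicate 4, and in HPLM/B27 only without Day 16 replicate 2 or HPLM/B27 replicate 1. Against Day 30 RPMI/B27 the log2 fold change was 0.36 ± 0.17 in HPLM/B27 and 0.35 ± 0.17 in RPMI_glcM/B27 and did not pass (SE, limma, adjusted p = 0.318 and 0.335), but both passed after median-of-ratios scaling (limma, adjusted p = 0.00609 and 0.0264). LOC107986813, a gene listed inside CACNA2D1, had means of 6.02 ± 0.865 TPM at Day 16, 8.90 ± 1.55 in RPMI_glcM/B27 and 9.58 ± 1.13 in HPLM/B27 (SD, n = 4).

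CACNA2D2 (chr3:50362613-50504244), an alpha2delta subunit better known from brain, was low and lowest in Day 30 RPMI/B27. Its TPM there was 1.49, 1.13, 0.806 and 0.437, against 2.99, 2.87, 2.68 and 2.05 in RPMI_glcM/B27, 2.14, 3.85, 1.59 and 1.71 in HPLM/B27 and 1.59, 2.55, 0.843 and 1.43 at Day 16. Neither RPMI_glcM/B27 nor HPLM/B27 overlapped Day 30 RPMI/B27, in which the gene had 14 to 36 reads. The means were 2.74-fold and 2.41-fold as high, with log2 fold changes of 0.91 ± 0.24 and 0.74 ± 0.24 that did not pass (SE, limma, adjusted p = 0.0621 and 0.136). Both passed in limma-voom on recovered reads (adjusted p = 0.00316 and 0.0113) and after median-of-ratios scaling (limma, adjusted p = 0.00797 and 0.0160). The comparison with RPMI_glcM/B27 also passed without Day 16 replicate 2 (limma, adjusted p = 0.0485). Against Day 16 the log2 fold change was 0.52 ± 0.24 in RPMI_glcM/B27, 0.34 ± 0.24 in HPLM/B27 and -0.39 ± 0.24 in Day 30 RPMI/B27, and none passed (SE, limma, adjusted p = 0.145, 0.306 and 0.251). The first of them passed at 0.67 after median-of-ratios scaling (log2 scale, limma, adjusted p = 0.0177), in limma-voom (adjusted p = 0.0277) and with RNR1 as a covariate (limma, adjusted p = 0.0497).

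**Figure D3:**
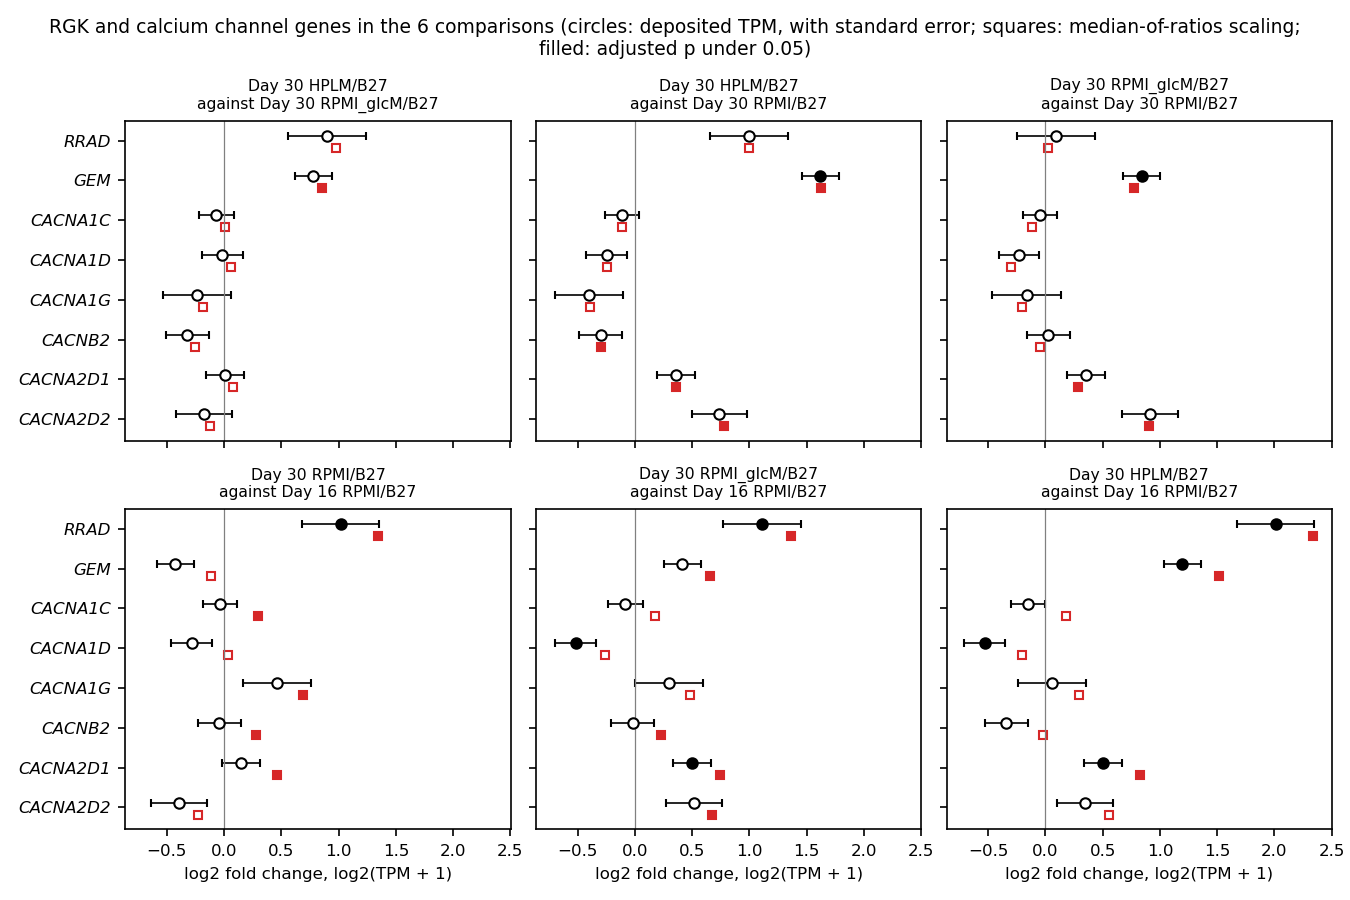
Log2 fold change (horizontal axis, log2(TPM + 1) scale) of the 8 genes tested in the 6 comparisons. Circles are the deposited TPM with the standard error, squares the values after median-of-ratios scaling, and filled symbols have an adjusted p (limma) under 0.05. RRAD and GEM reach 2.01 and 1.19 in HPLM/B27 against Day 16, and the squares lie to the right of the circles in the 3 comparisons with Day 16.

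Of the 8 genes tested, 0 passed when HPLM/B27 was set against RPMI_glcM/B27, where 0.0682% of all genes tested did. There 2 had an unadjusted limma p under 0.05 (RRAD and GEM), and limma-voom and median-of-ratios scaling each called 1 (GEM). Between HPLM/B27 and Day 30 RPMI/B27, 1 passed (GEM, higher), against 2.41% of all genes. Between RPMI_glcM/B27 and Day 30 RPMI/B27, 1 passed (GEM, higher), against 2.20%. Against Day 16, 1 passed in Day 30 RPMI/B27 (RRAD, higher) where 19.9% of all genes did. In RPMI_glcM/B27 3 passed (RRAD and CACNA2D1 higher, CACNA1D lower) where 21.1% did. In HPLM/B27 4 passed (RRAD, GEM and CACNA2D1 higher, CACNA1D lower) where 25.4% did. In these 3 comparisons with Day 16, in the same order, 2.08%, 3.34% and 3.00% of all genes were higher and 17.8%, 17.8% and 22.4% lower, and after median-of-ratios scaling 8.62%, 13.4% and 12.9% were higher and 8.91%, 14.2% and 12.5% lower. Groups did not overlap for 3 of the 8 genes between HPLM/B27 and RPMI_glcM/B27 (RRAD, GEM and CACNB2; 7.28% of all genes), for 3 between HPLM/B27 and Day 30 RPMI/B27 (RRAD, GEM and CACNA2D2; 7.30% of all genes) and for 2 between RPMI_glcM/B27 and Day 30 RPMI/B27 (GEM and CACNA2D2; 7.00% of all genes). The comparisons share groups and are not independent of each other. The share of all genes without overlap was not counted against Day 16.

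The same subunit led each family of channel subunits in every library. CACNA1C held 59.5% ± 4.25 of the summed TPM of the 10 pore genes at Day 16, 65.4% ± 2.31 in HPLM/B27, 65.3% ± 2.39 in RPMI_glcM/B27 and 63.1% ± 6.27 in Day 30 RPMI/B27 (SD, n = 4). CACNA1D followed in the same order with 31.5% ± 2.04, 26.3% ± 2.30, 25.3% ± 2.19 and 28.2% ± 4.87 (SD, n = 4). CACNA1G held 3.01% to 4.97% in the group means and the other 7 pore genes the rest. CACNB2 held 69.5% ± 3.62 of the beta subunit transcripts at Day 16, and at Day 30 71.6% ± 1.85 with standard RPMI/B27, 67.9% ± 2.57 with RPMI_glcM/B27 and 61.8% ± 3.13 with HPLM/B27 (SD, n = 4). CACNB1, the beta subunit of skeletal muscle, took 28.9% ± 2.98 in HPLM/B27, 25.2% ± 2.33 in RPMI_glcM/B27, 18.4% ± 2.13 in Day 30 RPMI/B27 and 19.4% ± 2.02 at Day 16 (SD, n = 4). CACNA2D1 held between 86.9% and 92.4% of the alpha2delta transcripts in the group means.

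**Figure D4:**
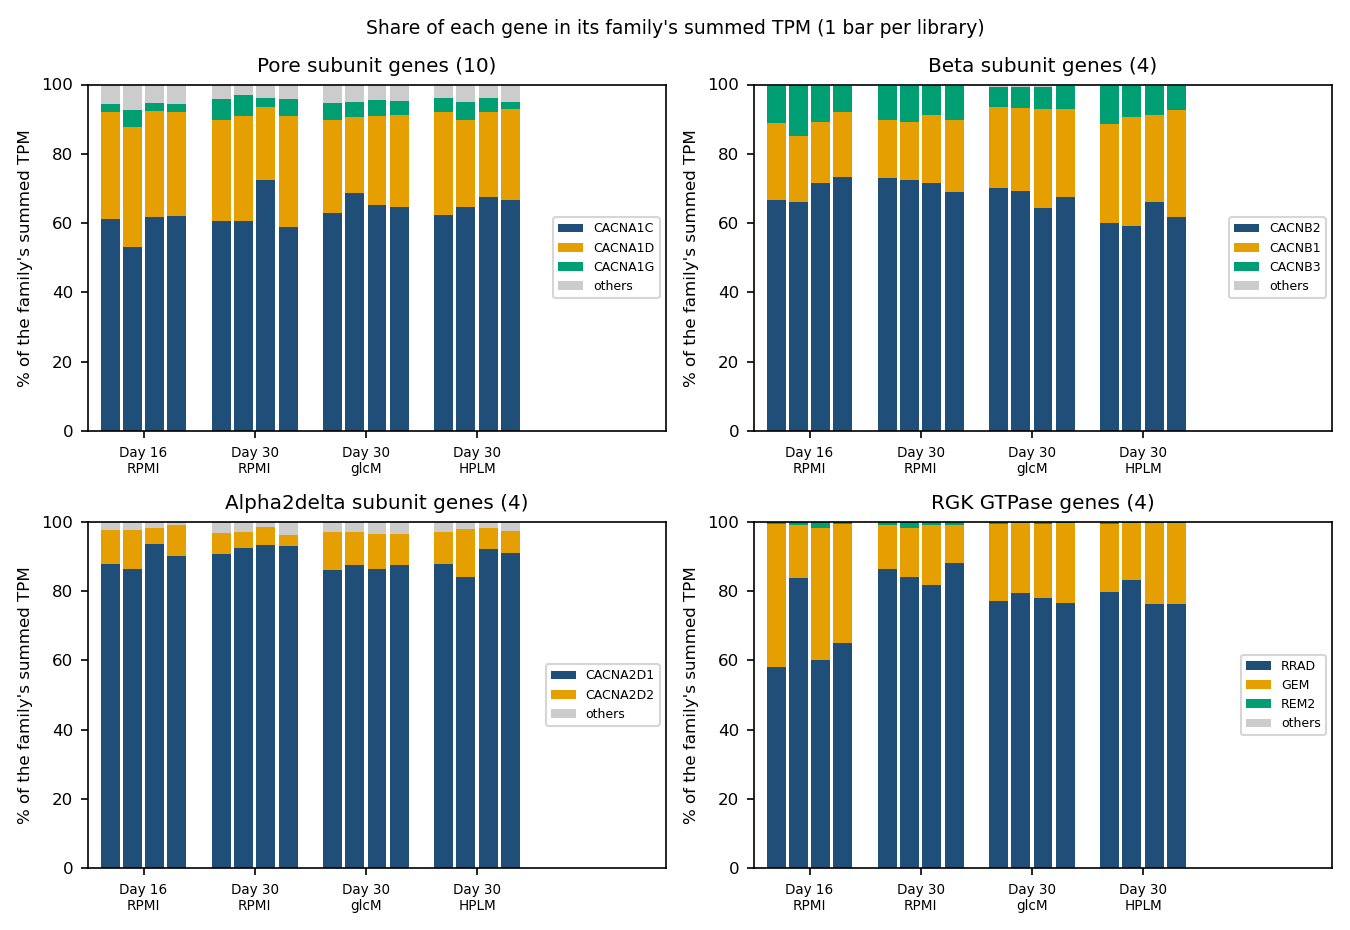
Share of each gene in the summed TPM of its family (vertical axes, percent), 1 bar per library and 4 bars per group. CACNA1C, CACNB2, CACNA2D1 and RRAD lead their families in every library, and the RRAD share of Day 16 replicate 2, the second bar of the lower right panel, is 83.8% against 58.0% in the lowest Day 16 library.

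Of 20 other voltage-gated calcium channel subunits, 4 were tested and the rest had a mean below 1 TPM. CACNA1H, the T-type pore Cav3.2, was the only one of them to pass on the deposited scale. It fell against Day 16 in all 3 Day 30 groups, where 22.4%, 17.8% and 17.8% of all genes were lower (HPLM/B27, RPMI_glcM/B27, RPMI/B27). Its mean was 2.12 ± 0.819 TPM at Day 16, 0.711 ± 0.200 in HPLM/B27, 0.986 ± 0.0630 in RPMI_glcM/B27 and 1.04 ± 0.189 in Day 30 RPMI/B27 (SD, n = 4). The log2 fold changes were -0.84, -0.62 and -0.58 in the same order (SE 0.19 each, limma, adjusted p = 0.00473, 0.0290 and 0.0417). On the median-of-ratios scale that of Day 30 RPMI/B27 was -0.37 and did not pass (limma, adjusted p = 0.111). CACNB1 passed against Day 16 on that scale, at 0.57 in RPMI_glcM/B27 and 0.64 in HPLM/B27 (log2 scale, limma, adjusted p = 0.00120 and 0.000538), beside 0.35 and 0.34 on the deposited one (limma, adjusted p = 0.150 and 0.131). Between the Day 30 groups none passed, although CACNB1 had an unadjusted p under 0.05 in both comparisons with Day 30 RPMI/B27, at 0.49 on the log2 scale each (limma, adjusted p = 0.143 with HPLM/B27 and 0.145 with RPMI_glcM/B27), and passed there in limma-voom and after median-of-ratios scaling. The medians of the 4 genes against Day 16 were -0.26 in HPLM/B27, -0.36 in RPMI_glcM/B27 and -0.23 in Day 30 RPMI/B27, beside -0.29, -0.22 and -0.28 over all genes.

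Of 17 regulators of the L-type channel, such as calmodulins, CaMKII, protein kinase A and its anchors, 16 were tested. None passed in limma when HPLM/B27 was set against RPMI_glcM/B27 (3 with an unadjusted p under 0.05, 0 in limma-voom) or when RPMI_glcM/B27 was set against Day 30 RPMI/B27 (3 with an unadjusted p under 0.05, 3 in limma-voom, 5 after median-of-ratios scaling). From Day 30 RPMI/B27 to HPLM/B27 1 fell, AHNAK, a large scaffold that binds the beta subunit, with a log2 fold change of -0.69 ± 0.14 (SE, limma, adjusted p = 0.0132). Against Day 16, 7 of the 16 were lower in HPLM/B27, 8 in RPMI_glcM/B27 and 5 in Day 30 RPMI/B27, and 0 were higher (unadjusted p under 0.05 for 9, 9 and 8 in either direction), where 22.4%, 17.8% and 17.8% of all genes were lower. After median-of-ratios scaling 4, 5 and 1 were lower and 0, 1 and 2 higher in the same order, where 12.5%, 14.2% and 8.91% of all genes were lower and 12.9%, 13.4% and 8.62% higher. The medians of the list were -0.48, -0.42 and -0.26, beside -0.29, -0.22 and -0.28 over all genes. AKAP7, an anchor that holds protein kinase A at the channel, changed by -0.77, -0.72 and -0.60 in the same order (SE 0.17 each, log2 scale, limma, adjusted p = 0.00335, 0.00574 and 0.0205), of which the last did not pass after median-of-ratios scaling (limma, adjusted p = 0.0518). CAMK2G and CAMK2D, which encode calcium- and calmodulin-dependent kinase subunits, fell in RPMI_glcM/B27 by 0.71 and 0.68 on the log2 scale (limma, adjusted p = 0.00362 and 0.00359), and CALM2, a calmodulin gene, by 0.60 in Day 30 RPMI/B27 (log2 scale, limma, adjusted p = 0.0288). CAMK2G also passed in HPLM/B27 (-0.65, limma, adjusted p = 0.00573) and CALM2 in RPMI_glcM/B27 (-0.60, limma, adjusted p = 0.0251). CAMK2D also passed in HPLM/B27 and Day 30 RPMI/B27 (-0.47 and -0.46, limma, adjusted p = 0.0264 and 0.0357). After median-of-ratios scaling these 2 changes of CAMK2D did not pass (limma, adjusted p = 0.217 and 0.282).

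Of 6 partners of the channel at the dyad, where the surface membrane meets the sarcoplasmic reticulum, RYR2, JPH2, BIN1 and SLC8A1 were tested, and CAV3 and FKBP1B were below the filter. None passed in limma between the Day 30 groups, where RYR2, the calcium release channel, had an unadjusted p under 0.05 with HPLM/B27 against RPMI_glcM/B27 and SLC8A1, the sodium-calcium exchanger, with HPLM/B27 against Day 30 RPMI/B27. Of these SLC8A1 passed in limma-voom, and both did after median-of-ratios scaling, as did RYR2 with RPMI_glcM/B27 against Day 30 RPMI/B27 (limma, adjusted p = 0.0359). Against Day 16 only BIN1, which shapes T-tubules and carries CACNA1C to them, passed on the deposited scale. It was lower in all 3 Day 30 groups, where 22.4%, 17.8% and 17.8% of all genes were lower (HPLM/B27, RPMI_glcM/B27, RPMI/B27). Its mean was 7.81 ± 1.84 TPM at Day 16, 2.58 ± 0.432 in HPLM/B27, 2.66 ± 0.925 in RPMI_glcM/B27 and 3.54 ± 0.705 in Day 30 RPMI/B27 (SD, n = 4). The log2 fold changes were -1.28, -1.28 and -0.95 (SE 0.20 each, limma, adjusted p = 0.000293, 0.000284 and 0.00423), and all 3 also passed after median-of-ratios scaling. On that scale RYR2 in RPMI_glcM/B27 and SLC8A1 in HPLM/B27 also passed against Day 16, higher by 0.35 and 0.46 (log2 scale, limma, adjusted p = 0.000304 and 0.00158), beside 0.08 and 0.12 as deposited (limma, adjusted p = 0.759 and 0.544). The medians of the 4 genes were -0.22, -0.06 and -0.32.

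The genes whose log2(TPM + 1) followed RRAD most closely over the 16 libraries were MYH7, TESC and SHISAL1, with Pearson's r of 0.92, 0.91 and 0.89. MYH7, the beta myosin heavy chain, had group means of 1832 TPM at Day 16, 2345 TPM in Day 30 RPMI/B27, 2667 TPM in RPMI_glcM/B27 and 2996 TPM in HPLM/B27. For CACNA1C they were USP12, RBM20 and DDX59, with r of 0.93, 0.92 and 0.92. These were picked as the highest of all genes tested, the libraries share groups and scaling, and the values are given as a description of likeness.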

How the data were processed

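Total RNA was made into strand-specific libraries by the authors with a Takara SMARTer kit. Reads were aligned by STAR 2.5.3a to hg38 plus decoys and counted per gene by featureCounts 2.0.3. The values the authors deposited are TPM per gene symbol, 4 libraries in each of 4 groups. The annotation, gene lengths and TPM tool are not given in the sources used here, nor is the strand setting of the count. The description deposited with the series gives another number of wells than the sample labels, which were followed.

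The 16122 genes averaging 1 TPM or more entered limma 3.58.1 (trend, R 4.3.3) as log2(TPM + 1), all 4 groups in 1 fit, with Benjamini-Hochberg adjustment over all genes tested and a threshold of 0.05. A fold change on log2(TPM + 1) understates that of low genes. Whole reads were recovered from the TPM steps of all 31047 genes above 0 in any library. For the ratios, exact permutation tests (two-sided) were used. Alternatives were a pseudocount of 0.1, all genes above 0, median-of-ratios scaling, only the 2 groups, a replicate block, RNR1 as a covariate, limma-voom on recovered reads (mean of at least 10) and each library left out. Leaving out Day 16 replicate 2 in comparisons between Day 30 groups was added after seeing the data. In simulated data for HPLM/B27 against RPMI_glcM/B27, limma recovered 172 of 200 genes changed by a log2 fold of 1, with 5 false calls. The simulation used a dispersion of 0.02 for every gene and held no deviating library or shift in scaling. The recovery rate in the real libraries cannot be read from it.

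The 10 genes and the lists were chosen with earlier results of these data known. All 10 are named. Of a list, at most the 3 past the threshold with the largest change in a comparison are named, and for RRAD and CACNA1C the 3 most correlated genes. CACNB1, SLC8A1, RYR2 and the genes overlapping a member were named after their values were seen. The qPCR and the other assays of the study were not analysed here, and 1 gene of a list is not reported here.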

Additional observations from a re-analysis of the deposited data

Results flagged for a closer look

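Of 44 groups of 4 libraries examined (the levels of the 9 genes above 0 and the 2 ratios), 4 held a library whose gap to the nearest other, divided by the range of the group, passed Dixon's critical value, where chance gives about 5% of groups. Day 16 replicate 2 held 92.5 TPM of RRAD, against 19.8 to 26.6 TPM in the other 3. Its ratio of RRAD to CACNA1C was 1.98, against 0.389 to 0.514. Its ratio of CACNA1G to CACNA1C was 0.0917, against 0.0355 to 0.0408. REM2 in HPLM/B27 replicate 1 was 1.11 TPM from 17 reads, against 0.612 to 0.667 TPM.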

How the results depend on the processing

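Counts of the 8 tested genes past the threshold moved with the setting. They are given in this order: HPLM/B27 against RPMI_glcM/B27, HPLM/B27 against Day 30 RPMI/B27, RPMI_glcM/B27 against Day 30 RPMI/B27, and then Day 16 as the base of RPMI/B27, of RPMI_glcM/B27 and of HPLM/B27. From 0, 1, 1, 1, 3 and 4 as reported they became 1, 4, 3, 5, 5 and 3 after median-of-ratios scaling, 1, 4, 2, 1, 5 and 4 with limma-voom, 1, 2, 0, 0, 2 and 5 with only the 2 groups, 0, 1, 1, 0, 0 and 2 with all genes above 0, and 1, 1, 1, 2, 4 and 3 with RNR1 as a covariate. With each library left out they ranged from 0 to 1, 1 to 2, 1 to 2, 0 to 1, 0 to 2 and 2 to 3. Under the pseudocount of 0.1 the counts stayed within 1.5 times. The replicate numbers were not taken to pair the samples (same-number correlation of deviations from -0.15 to 0.41, over 0.1 in 11 of 24 pairs), and a replicate block gave 0, 2, 2, 1, 3 and 4, the added gene being CACNA2D2 with HPLM/B27 and with RPMI_glcM/B27 against Day 30 RPMI/B27 (limma, adjusted p = 0.0411 and 0.0179). The cause of these moves was not tested.

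For all genes tested, the count past the threshold with HPLM/B27 against RPMI_glcM/B27 went from 11 to 262 after median-of-ratios scaling and to 138 with limma-voom, and from 388 and 354 with the Day 30 RPMI/B27 group as base to 2083 and 1945 after median-of-ratios scaling.

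The log2 ratio of RRAD to CACNA1C, with each library left out, ranged from 0.93 to 1.01, 0.97 to 1.31, -0.0045 to 0.33, 0.84 to 1.63, 0.99 to 1.77 and 1.97 to 2.75 in the same order. With 3 libraries against 4 no exact test can go below p = 0.0571. That of CACNA1G to CACNA1C ranged from -0.45 to 0.010 (HPLM/B27 against RPMI_glcM/B27) and from -0.49 to 0.017 (RPMI_glcM/B27 against Day 30 RPMI/B27).

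Of the log2 fold changes that changed sign, the largest as reported was -0.29, that of CACNA1D in Day 30 RPMI/B27 against Day 16. Against Day 16, median-of-ratios scaling turned CACNA1C to 0.29, 0.17 and 0.18 (RPMI/B27, RPMI_glcM/B27, HPLM/B27), CACNB2 to 0.28 and 0.23 (the RPMI groups) and CACNA1D to 0.037 (RPMI/B27). The RNR1 covariate turned CACNA1C to 0.18 and 0.042 and CACNB2 to 0.29 and 0.18 in the RPMI groups, and limma-voom turned them to 0.13 and 0.049 and to 0.11 and 0.11. Between Day 30 groups, median-of-ratios scaling turned CACNA1C to 0.0072 and CACNA1D to 0.056 (HPLM/B27 against RPMI_glcM/B27) and CACNB2 to -0.044 (RPMI_glcM/B27 against RPMI/B27). There the RNR1 covariate turned CACNA2D1 to -0.013 in the former, and RRAD to -0.073 and CACNB2 to -0.12 in the latter. With each library left out, sign changes spanned -0.12 to 0.13, -0.14 to 0.011 and -0.21 to 0.048 for CACNA1C, -0.20 to 0.12, -0.093 to 0.059 and -0.14 to 0.18 for CACNB2 (RPMI/B27 and RPMI_glcM/B27 against Day 16, then RPMI_glcM/B27 against RPMI/B27), -0.079 to 0.052 for CACNA1D and -0.062 to 0.076 for CACNA2D1 (HPLM/B27 against RPMI_glcM/B27), -0.087 to 0.27 for CACNA1G (HPLM/B27 against Day 16), -0.42 to 0.015 for CACNA1G and -0.036 to 0.22 for RRAD (RPMI_glcM/B27 against RPMI/B27). None of these left-out fits passed the threshold.

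The low read counts limit REM2, CACNA2D2 and CACNA1G, at 3 to 24, 14 to 102 and 60 to 341 reads per library.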
